A study of Mus musculus with 4 samples.

Results

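The spots described here are the 302 myoblast marker spots of an injured muscle section taken 3 days post injury, out of 3020 spots of that section with at least 2000 UMIs (unique molecular identifiers, each counting 1 captured RNA molecule). For each spot the UMIs of Myog, Mymk, Mymx, Myh3 and Myod1 were summed and divided by all UMIs of the spot, and the spots at or above the 90th percentile of this score were taken. The section held 3029 deposited spots and the whole series 10835. The other 2718 spots of the section are the comparison throughout. A spot is a small area of tissue that can hold several cells or parts of cells, so the marker spots are areas rich in this RNA and not cells, and more myoblasts in a spot cannot be told apart from more marker RNA per myoblast.

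The study followed heterotopic ossification, the formation of bone in soft tissue, in Nse-Bmp4 mice, which carry Bmp4 (a bone morphogenetic protein gene) under the promoter of neuron specific enolase. All groups had this genotype on a C57BL/6 background, were 6-8 weeks old and gave tibial muscle. The sections were from uninjured muscle (day 0) and from muscle 1, 3 and 7 days post injury with cardiotoxin, a snake toxin that destroys myofibres, with 1 section per day. Per the labels each group mixed 3 tibial muscles, and the sources used here do not give how many of them a section shows. With 1 section per day there was no replicate, no test across animals was possible, and every interval below is an exact 95% interval that covers counting error only.

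After injury, satellite cells, the stem cells of muscle, leave quiescence and divide as myoblasts under the transcription factor MyoD, encoded by Myod1. Myoblasts then leave the cell cycle and switch on myogenin, encoded by Myog, and fuse into multinucleated myotubes with the help of the membrane proteins myomaker (Mymk) and myomerger (Mymx). The young myotubes first build their contractile apparatus from embryonic and cardiac forms of sarcomere proteins, among them the embryonic myosin heavy chain Myh3, before the adult fast and slow forms take over.

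The promoters of the 5 markers and of the 20 genes with the highest ratio in the marker spots are shown by example, since factors of the MyoD family bind the E-box CANNTG, often in the form CAGCTG, and MEF2 factors bind an AT-rich motif beside them. The 250 bases before each start site were taken from RefSeq promoters of build GRCm38.p6, and 16 of the 25 genes matched, with 20 start sites. Mymk, Mymx, Myod1, Smim5, Exoc3l, Cdk5r1, Cdkn1c, Megf10 and Msln did not match. Both strands were searched, and each CAGCTG is also a CANNTG. The MEF2 motif was searched as YTAWWWWTAR, where Y is C or T, W is A or T, and R is A or G. Of the 20 promoters, 18 (90%) held CANNTG, against 66.2% of all 32851 promoters so taken. Start sites of Mest and of Tnni1 lie close together, so some of the 20 stretches overlap and a site can count more than once. No enrichment was tested. CAGCTG was found in 7 (35%) against 13.0%, and the MEF2 motif in 1 (5%) against 2.92%. These are matches of letters and not measured binding sites. A stretch that differs from a motif in 1 base was not counted or marked. An example is ctatatttat in Myog below, which misses the MEF2 motif at its last base. The 5 promoters below belong to 2 markers (Myog, Myh3), to the fetal acetylcholine receptor subunit Chrng and to 2 fetal sarcomere genes (Tnnt2, Myh8), 5′ to 3′ along the gene, with the matches in capitals.
Myog, chr1:134289754-134290003, plus strand: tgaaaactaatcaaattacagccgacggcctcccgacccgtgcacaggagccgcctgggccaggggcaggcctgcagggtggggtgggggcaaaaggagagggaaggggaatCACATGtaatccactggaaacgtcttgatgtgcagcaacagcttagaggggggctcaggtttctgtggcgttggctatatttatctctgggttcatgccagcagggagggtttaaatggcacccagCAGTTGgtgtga
Myh3, chr11:67078050-67078299, plus strand: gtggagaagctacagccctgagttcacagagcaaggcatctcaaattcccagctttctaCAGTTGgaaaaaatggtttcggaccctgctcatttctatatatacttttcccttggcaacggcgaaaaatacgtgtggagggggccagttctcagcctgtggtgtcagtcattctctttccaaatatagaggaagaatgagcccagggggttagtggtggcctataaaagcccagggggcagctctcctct
Chrng, chr1:87205561-87205810, plus strand: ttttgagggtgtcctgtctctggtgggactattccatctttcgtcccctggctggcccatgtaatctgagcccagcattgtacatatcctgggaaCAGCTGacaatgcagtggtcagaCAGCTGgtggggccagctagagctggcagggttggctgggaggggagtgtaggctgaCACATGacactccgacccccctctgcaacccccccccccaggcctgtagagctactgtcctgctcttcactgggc
Tnnt2, chr1:135836084-135836333, plus strand: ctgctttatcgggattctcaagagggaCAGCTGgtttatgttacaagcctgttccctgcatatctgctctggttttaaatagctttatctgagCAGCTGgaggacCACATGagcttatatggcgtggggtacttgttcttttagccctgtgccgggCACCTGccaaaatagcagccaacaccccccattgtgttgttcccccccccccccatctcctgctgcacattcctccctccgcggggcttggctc
Myh8, chr11:67276874-67277123, plus strand: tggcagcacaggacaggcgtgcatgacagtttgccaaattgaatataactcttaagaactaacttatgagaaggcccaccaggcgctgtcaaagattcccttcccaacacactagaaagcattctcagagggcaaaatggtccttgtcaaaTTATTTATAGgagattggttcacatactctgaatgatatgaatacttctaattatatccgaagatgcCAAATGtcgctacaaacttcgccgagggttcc
The promoter of Myog held 2 E-boxes, the nearer one 12 bases before the start site, and that of Myh3 held 1. Chrng and Tnnt2 each held 2 copies of CAGCTG. For a gene with more than 1 start site, the promoter with the most E-boxes is shown. The other Tnnt2 promoter held 1 E-box and no CAGCTG. The fetal sarcomere genes Actc1 and Myl4, not shown, held no match to any of these motifs. In Myh8 the capitals from 99 to 90 bases before the start mark the MEF2 motif, and the other match is an E-box.

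The score was a continuum. It ran from 0 in 297 spots without a marker UMI to 5896 CPM (counts per 1e6 UMIs), with a median of 311 and a 90th percentile of 1064 CPM. The spot just inside the threshold had 1064.63 CPM from 17 marker UMIs, and the spot just outside had 1064.05 from 56. The marker spots had 4 to 302 marker UMIs each, with a median of 46, and the other spots a median of 4. The marker spots were also deeper, with a median of 28815 UMIs against 14849, and mitochondrial genes took a median of 5.72% of their UMIs against 14.2%. The part of depth and mitochondrial share in the results was not tested. The 4 sections shared between 1539 and 2311 spot barcodes in pairs, since barcodes name positions on the array.

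The marker values chose the spots, so they are given as a description. Myog had 738 CPM, summed over the spots, in the marker spots and 127 in the others. Its lowest, median and highest level in a marker spot were 0, 606 and 2218 CPM, and 99.3% of the marker spots held a Myog UMI. Mymk had 224 CPM against 34.7, and Mymx 164 against 21.0. Spot values of Mymk ran from 0 through a median of 179 to 947 CPM, and those of Mymx from 0 through 138 to 1032 CPM. Myh3 had 436 CPM against 44.4, with spot values from 0 through 337 to 3798 CPM. Myod1 had 340 CPM against 171. It was spread over the section: 81.5% of the other spots held a Myod1 UMI, and the groups overlapped widely, with up to 966 CPM in a spot outside the marker spots.

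The markers did not contribute equally. In the marker spots Myog gave 38.8% of the marker UMIs, Myh3 22.9%, Myod1 17.9%, Mymk 11.8% and Mymx 8.60%. In the other spots Myod1 gave 43.0% and Myh3 11.2%. By UMIs, Myog led in 205 of the 302 spots, Myh3 in 64, Myod1 in 24 and Mymk in 1, with 8 ties. To see each marker in spots that it had no part in choosing, the score was rebuilt without it. Myh3 was then 7.55 times higher in the chosen spots (95% interval 7.17 to 7.95), Mymx 7.13 times (6.58 to 7.73), Mymk 6.14 times (5.75 to 6.55) and Myog 4.72 times (4.56 to 4.89). Myod1 was 1.77 times higher (1.69 to 1.85). Spots ranked by Myod1 alone shared 34.1% of the marker spots, while those ranked by Myog alone shared 79.8%. With the UMIs of every spot split at random in 2 parts, and spots chosen on 1 part and measured on the other, the ratio was 9.15 for Myh3 and 1.83 for Myod1.

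How many markers a spot held was also set in part by the rule, which chose spots with many marker UMIs, and thinning does not undo that choice, so these shares are a description too. When each spot was thinned to 2000 UMIs, so that depth was equal, 74.8% of the marker spots held UMIs of at least 2 of the 5 markers, against 10.5% of the other spots. At that depth Mymk was found in 34.2% of the marker spots (28.8 to 39.8) and 4.73% of the others (3.98 to 5.61), and in 0.195% of the spots of day 1 (0.051 to 0.475). Mymx was found in 25.6% (20.7 to 30.8), 3.03% (2.41 to 3.73) and 0.0952% (0.011 to 0.335). The shares without thinning were 96.7% and 91.4% of the marker spots for these genes, and 0.650% and 0.279% of the day 1 spots. The share in day 1 spots is the lowest measured here and serves as the level of background.

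**Figure D1:**
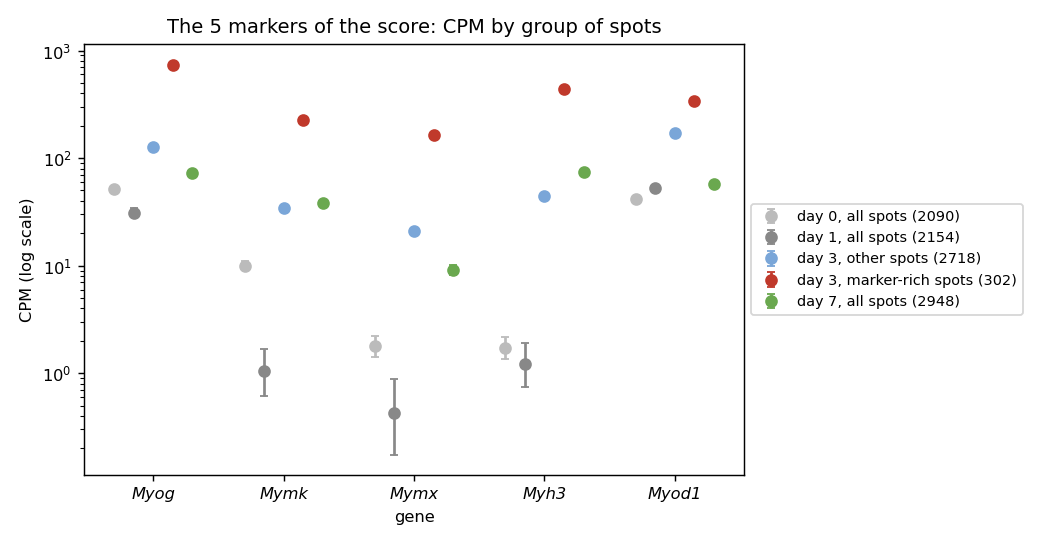
CPM (log scale) of the 5 markers of the score, summed over the spots of each group, with exact 95% Poisson intervals. The marker-rich spots of day 3 (red) lie highest for every marker by construction, the other day 3 spots (blue) hold less of every marker, and Mymk, Mymx and Myh3 are near 1 CPM or below at day 1, and the 2 day 3 groups are closest for Myod1.

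The markers appeared with the time of the section. Over all spots used, Myh3 had 1.73, 1.23, 107 and 73.8 CPM in the sections of days 0, 1, 3 and 7. Mymx had 1.78, 0.430, 43.9 and 9.09 CPM, and Mymk 10.0, 1.05, 65.2 and 38.0. Myog was 51.6, 31.2, 225 and 73.4 CPM, and Myod1 41.4, 52.4, 198 and 57.0. The day 3 section was the highest for all 5 markers. At the score threshold of day 3, 4 spots of day 0 (0.191%), 10 of day 1 (0.464%) and 55 of day 7 (1.87%) would have been chosen. The day 1 section was the shallowest, with a median of 6322 UMIs per spot against 21029, 16087 and 12119.5 at days 0, 3 and 7.

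The label names early myoblasts, and the genes of the stem cell stage bear on it. Pax7, the transcription factor of satellite cells, had 9.53 CPM in the marker spots and 3.82 in the others, with a UMI in 22.5% and 5.81% of spots. Myf5, an early factor of the MyoD family, had 14.1 against 5.42 CPM. Of 10 satellite cell genes, 9 passed the filter of 100 UMIs, and 7 were at least 1.5 times higher in the marker spots. Over all 12179 genes that passed the filter, 1546 (12.7%) were at least 1.5 times higher and 682 (5.6%) at least 1.5 times lower. With TMM, a scaling by a trimmed mean over genes, these were 615 and 1157, and with DESeq2 size factors 611 and 1160, so the balance of higher and lower genes turned with the scaling. The 7 satellite cell genes were still higher under both. The largest ratio of the list was that of Megf10, an engulfment receptor of satellite cells, at 4.55 (3.49 to 5.93), followed by Fgfr4, a fibroblast growth factor receptor, at 3.53. The summed list was 1.502 times higher (1.43 to 1.57). The ratio of the median gene was 1.18 (0.23 on the log2 scale), and relative to it the satellite cell list was at 1.28. Among the 20 genes with the highest ratio, Megf10 was the 1 satellite cell gene, and 5 were fetal sarcomere genes.

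A further 302 of the other spots, each paired to a marker spot with nearly the same share of adult sarcomere UMIs, were used as a stricter comparison, chosen after seeing the data. Against these matched spots the median gene was at 1.00, and 566 genes (4.65%) were higher and 664 (5.45%) lower by the same fold.

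Fetal and cardiac sarcomere genes had the largest summed ratio of the 27 lists beside the markers. All 9 of the list passed the filter and all 9 were at least 1.5 times higher (8 with TMM or size factors). The summed ratio was 4.34 (4.27 to 4.42), 3.69 relative to the median gene, and 2.94 (2.85 to 3.02) against the matched spots. Myh8, the perinatal myosin heavy chain, had 26.2 CPM against 3.19, a ratio of 8.21 (6.66 to 10.1), and was found in 32.5% of the marker spots and 4.78% of the others. Tnnt2, cardiac troponin T, had 212 CPM against 36.6, with spot values from 0 through a median of 158 to 1128 CPM. Actc1, cardiac alpha actin, had 448 CPM against 84.3, and Myl4, an embryonic and atrial myosin light chain, 666 against 137. The day 0 section of uninjured muscle held 6353 CPM of the list, of which Actc1 gave 6066, and the marker spots held 2531. In the whole day 3 section, 6 of the 9 genes were at least 1.5 times higher than at day 0 and 1 was lower. The share of all genes that differed this much between the 2 sections was not computed, so these counts have no background. Adult sarcomere genes took 279193 CPM at day 0 and 93121 at day 3, and the part of this in the CPM of other genes was not tested. Tnni1, Tnnc1 and Tnnt1, the slow forms of troponin, had ratios of 4.69, 3.83 and 3.61. Myh7, the slow myosin heavy chain, was at 2.37 and Myl6b, a light chain, at 1.69 (1.13 to 2.49). Of the marker spots, 183 (60.6%, interval 54.8 to 66.1) were among the 302 spots highest in it. Myosin heavy chain genes resemble each other in sequence, and how shared reads were counted is not given in the sources used here.

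Adult sarcomere genes stood the other way. Of 16 genes 13 were at least 1.5 times lower and none higher, with a summed level of 41084 CPM against 103090, a ratio of 0.399 (0.397 to 0.400). Myh4, the fast myosin heavy chain of type IIB fibres, had 2090 CPM against 11468, and Pvalb, a calcium buffer of fast fibres, 658 against 3842. Myh2, Mb and Myh1 were closest to equal, at 0.874, 0.859 and 0.762. No marker spot was among the 302 spots highest in this list. The spot values of the list still reached 216175 CPM in a marker spot and as little as 3315 in another spot, so the groups overlapped. Of 12 genes that help assemble the sarcomere 1 was higher and 2 were lower (1 and 5 with TMM or size factors), with a summed ratio of 0.951 against all other spots but 1.30 (1.27 to 1.32) against the matched spots. Ankrd1, a stress-responsive titin-binding protein, was the 1 higher, at 411 CPM against 199.

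The acetylcholine receptor and its partners, which build the neuromuscular junction, were also higher. Of 11 genes 9 were at least 1.5 times higher (7 with TMM or size factors) and 1 lower, and the summed ratio was 2.43 (2.36 to 2.49), 2.06 relative to the median gene and 1.73 against the matched spots. Chrng, the fetal gamma subunit, had 78.7 CPM against 14.5, a ratio of 5.43 (4.88 to 6.04). Spot values of Chrng ran from 0 through a median of 66.5 to 367 CPM in the marker spots. Chrnd and Chrna1, the delta and alpha subunits, were at 3.41 and 2.82. Chrne, the epsilon subunit that replaces gamma in adult muscle, was the 1 lower gene, with 3.66 CPM against 8.62, a ratio of 0.424. The receptor kinase Musk and the anchoring protein rapsyn (Rapsn) were at 1.93 and 1.64.

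Genes of excitation contraction coupling did not follow the receptor. Of 12 genes 2 were higher and 5 lower (1 and 8 with TMM or size factors), with a summed ratio of 0.679 against all other spots and 1.17 against the matched spots. Casq2, the cardiac calsequestrin, had 109 CPM against 26.9 and Sln, sarcolipin, 30.0 against 18.2. Ryr1, the calcium release channel, had 248 against 479, and Casq1, the skeletal calsequestrin, 653 against 1079.

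Regulators of commitment were mostly higher, with 9 of 14 genes up by 1.5 times and 1 down (6 and 2 with TMM or size factors), and a summed ratio of 1.42 (1.39 to 1.45) and of 1.39 (1.35 to 1.44) against the matched spots. Cdkn1c, the cyclin-dependent kinase inhibitor p57, had 127 CPM against 23.9, a ratio of 5.29 (4.87 to 5.75), and 4.32 against the matched spots. Cdkn1a, the inhibitor p21, had 283 against 131. Hes6, a helix-loop-helix factor that favours differentiation, had 120 against 39.4, and Tead4, a transcription factor of muscle genes, 24.7 against 8.90. Myf6, the MyoD family member most abundant in mature fibres, was the 1 lower gene, at 117 against 196 CPM. Mef2c had 95.7 against 123 CPM and Mef2a 135 against 86.4.

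Adhesion genes were higher in part. Of 13 genes of fusion and adhesion, 6 were at least 1.5 times higher (5 with TMM or size factors) and none lower. Among the higher ones were Ncam1 (3.39), N-cadherin (Cdh2, 3.21) and M-cadherin (Cdh15, 3.20), which join myoblasts to each other. Itga7, the laminin receptor subunit of muscle, had 438 CPM against 217. The membrane repair protein dysferlin (Dysf) was at 0.857, and Dock1 and Nfatc2 were at 1.06 and 1.02, but 0.903 and 0.871 with TMM. The list as a whole was at 1.49 (1.47 to 1.52).

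Imprinted genes with roles in fetal growth were also higher. Of 11 genes 10 passed the filter and 9 were higher (8 with TMM or size factors). The summed ratio was 2.71 (2.64 to 2.79), 2.31 relative to the median gene and 1.97 against the matched spots. The day 0 section of uninjured muscle held 1093 CPM of the list, and the marker spots 941. In the whole day 3 section, 8 of the 11 genes were at least 1.5 times lower than at day 0 and 1 was higher. These counts too have no share over all genes to be set against. Mest, a hydrolase-like protein, had 196 CPM against 43.0, H19, a noncoding RNA, 432 against 162, and the neighbouring growth factor gene Igf2 62.8 against 18.3. Plagl1, a zinc finger factor, and Peg3 were at 2.80 and 2.56. Dlk1 did not pass the filter, with 0.554 CPM in the marker spots. Of the signalling genes listed, 2 of 13 that passed were higher and 1 lower: the Notch ligand Dll1 had 18.9 CPM against 6.92, while myostatin (Mstn), which limits muscle growth, had 2.88 against 24.3. The summed signalling list was at 1.04, and at 0.887 when scaled by TMM.

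**Figure D2:**
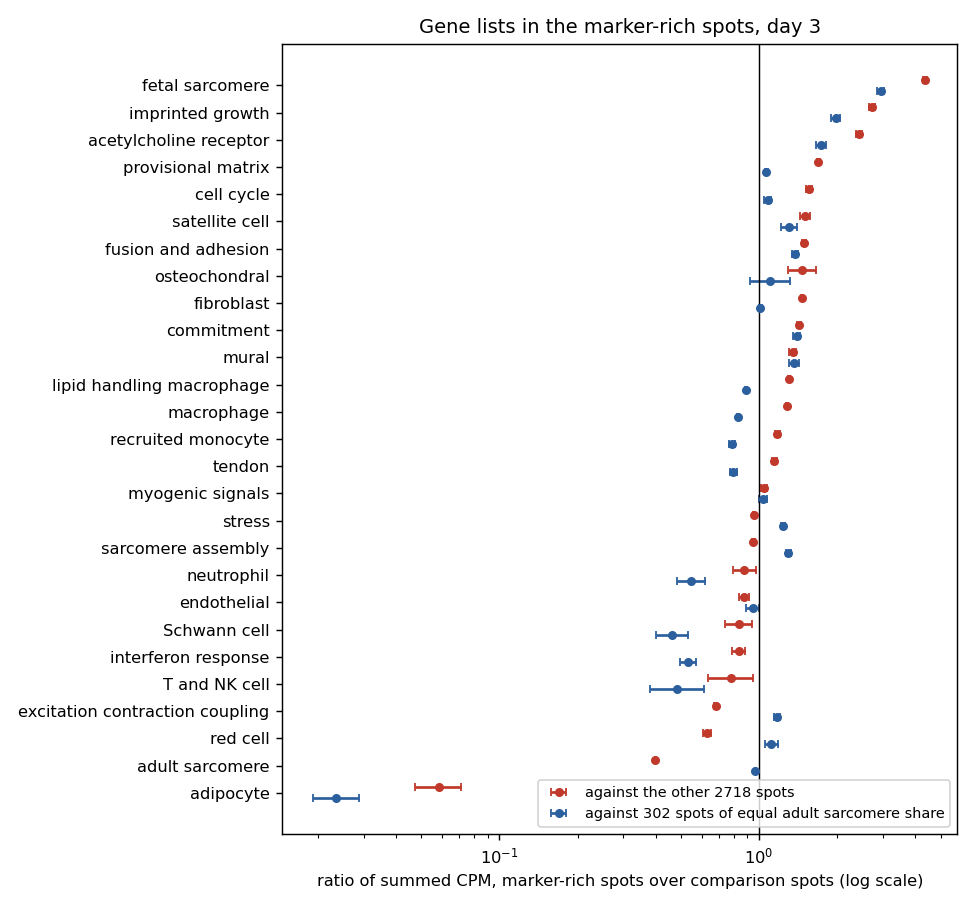
Ratio of summed CPM of 27 gene lists in the 302 marker-rich spots over all other spots (red) and over 302 other spots with nearly the same adult sarcomere share (blue), on a log scale with exact 95% intervals from UMI counts. Fetal sarcomere, imprinted growth and acetylcholine receptor genes lie right of 1 in both comparisons, adipocyte genes lie far left in both, and several lists, among them macrophage, tendon, sarcomere assembly and excitation contraction coupling, change side between them.

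The 20 genes with the highest ratio, of 9050 that had at least 10 CPM in 1 of the groups or both and were neither markers nor mitochondrial, held 9 genes of the fixed lists. Of these 20, 12 were under 10 CPM in the other spots and entered through the group where they were high. Smim6, a small membrane protein, came first with 19.8 CPM against 2.15, a ratio of 9.25 (7.21 to 11.9). The other 10 outside the lists were Lce1g (6.24), Plet1 (6.03), Smim5 (6.02), Exoc3l (5.69), Cdk5r1 (5.67), Ptgds (5.35), Sprr1a (4.96), R3hdml (4.89), Rassf7 (4.62) and Msln (4.48). Msln, mesothelin, had 55.7 CPM against 12.4, with a UMI in 58.9% of the marker spots. Ptgds encodes a prostaglandin D synthase and Cdk5r1 an activator of the kinase Cdk5. Lce1g had no UMI at days 0, 1 and 7, while it had 12.9 CPM in the marker spots and 2.06 in the other day 3 spots. Against the matched spots the ratios of these 11 genes lay between 2.35 (R3hdml) and 5.68 (Lce1g).

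Of the 10 genes with the lowest ratio, 8 were under 10 CPM in the marker spots. Retn, Cfd and Hp, which fat tissue makes, were at 0.0464, 0.0545 and 0.109, and Cfd had 8.98 CPM against 165. A UMI of Hp was found in 37.4% of the marker spots and 32.3% of the others, of Cfd in 15.2% and 25.7%, and of Retn in 1.32% and 5.92%. All 5 adipocyte genes that passed the filter were lower. The summed adipocyte list had a median of 0 CPM in both groups. Its highest spot value was 555 CPM in the marker spots and 39013 in the others. Igha and Igkc, immunoglobulin constant regions, were at 0.0637 and 0.152, and Cd209d, a lectin, at 0.0887. Mylk4, Mettl21c, 1700001O22Rik and Mstn made up the rest, of which Mylk4, a myosin light chain kinase, had 13.6 against 107 CPM.

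Genes of dividing cells were higher than in the section as a whole and close to those of spots with as little adult muscle RNA. Of 16 cell cycle genes 11 were at least 1.5 times higher and the sum was 1039 CPM against 667, a ratio of 1.56 (1.52 to 1.59) and 1.32 relative to the median gene. With TMM or size factors, 1 of the 16, Rrm2, was still at least 1.5 times higher. Rrm2, a subunit of ribonucleotide reductase, had 134 CPM against 66.9 and Mki67, the proliferation antigen Ki-67, 54.0 against 34.3. Against the matched spots none of the 16 was higher or lower by 1.5 times, and the ratio was 1.08 (1.04 to 1.11). Against 274 macrophage-rich spots (the 10% of spots highest in macrophage genes, marker spots left out) it was 0.803 (0.780 to 0.826).

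Macrophage RNA was present in every marker spot. The summed macrophage list ran from 1682 to 23673 CPM over the marker spots, with a median of 8688, against a median of 3725 in the other spots. As a sum it was 1.27 times higher (1.27 to 1.28) than in all other spots, 1.08 relative to the median gene, and 0.831 (0.823 to 0.839) against the matched spots, so its side of 1 depended on the comparison. Only Cd14 of its 10 genes passed 1.5 times, while Cd68 had 208 CPM against 254. Lyz2, lysozyme, had 5520 against 3974. Spp1, osteopontin, was lower, at 645 against 1031 CPM, and 0.448 against the matched spots, whereas Apoe, which carries lipids, was higher, at 8367 against 5412. Interferon response genes were at 0.833 (0.788 to 0.881) as a sum and 0.532 (0.497 to 0.569) against the matched spots, where all 6 were lower by 1.5 times. Recruited monocyte genes were at 1.17, at 0.999 with size factors, and at 0.785 against the matched spots. The part of these cells in the results was not tested. T and NK cell genes were scarce, with 13.2 CPM in the marker spots and 16.9 in the others over 9 genes.

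Matrix genes differed from each other. Postn, periostin, had 1361 CPM against 607, and Tnc, tenascin C, 257 against 105. Of the 10 genes of provisional matrix 5 were higher (3 with TMM or size factors), and the sum was 1.69 times higher (1.67 to 1.71), 1.06 against the matched spots. Of 10 fibroblast genes, the collagens Col1a1 (1.76), Col1a2 (1.61) and Col3a1 (1.57) were higher (1 of the 3 with TMM or size factors), Pi16 was lower at 26.9 against 72.7 CPM, and Pdgfra was at 0.880. The fibroblast sum was 1.46 (1.45 to 1.47) and 1.01 (0.999 to 1.02) against the matched spots. Scx, scleraxis, a transcription factor of tendon, had 144 CPM against 67.6, while the other tendon genes that passed lay between 0.689 and 1.14. The tendon sum was 1.15, 0.975 with TMM and 0.797 against the matched spots. Acta2, smooth muscle actin, which myoblasts also express, had 321 CPM against 148, and the pericyte gene Rgs5 118 against 140. Of the genes of bone and cartilage, Runx2 had 15.7 CPM against 9.03 and Sox9 19.5 against 14.9. Acan, Col2a1, Sp7 and Ibsp had at most 1 UMI each in the marker spots.

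Along the score, the gene groups did not follow a common course. With the 3020 spots ordered in 10 equal bins, the fetal sarcomere list went from 216 CPM in bin 1 to 1158 in bin 9 and 2531 in bin 10, which is the marker spots, and reached 5664 in the top 1% of spots. The acetylcholine receptor list rose from 143 through 543 to 793 CPM. The adult sarcomere list had 169146 CPM in bin 1 and 41084 in bin 10. The macrophage list had 10484 CPM in bin 9, 9375 in bin 10 and 8019 in the top 1%. Cell cycle genes had 949 CPM in bin 9, 1039 in bin 10 and 932 (871 to 995) in the top 1%. Pax7 had 0.764 CPM in bin 1, 7.28 in bin 9 and 9.53 in bin 10. The levels of the markers themselves in each bin are set by the rule.

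**Figure D3:**
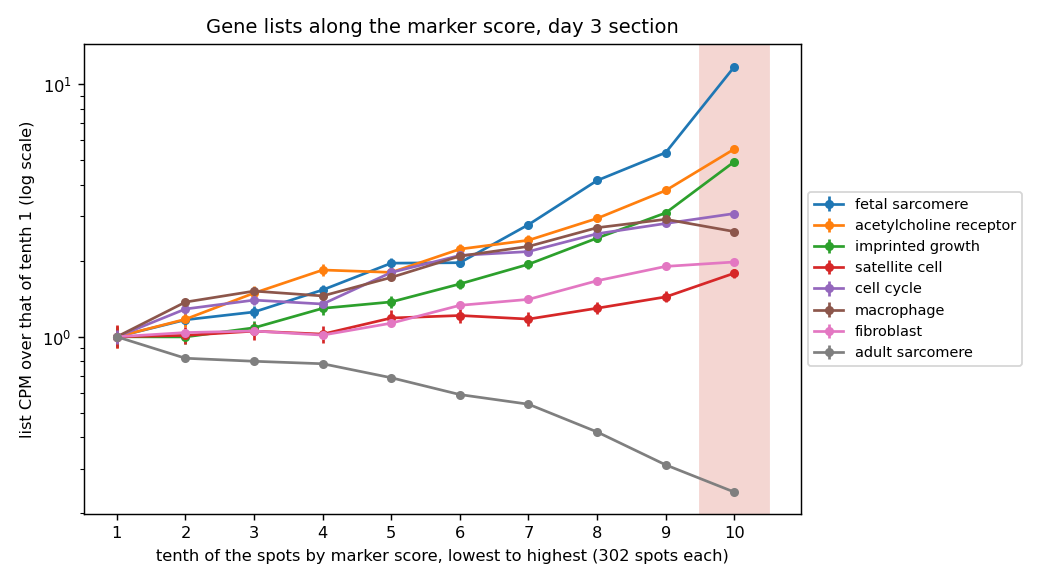
Summed CPM of 8 gene lists over that of bin 1 (log scale), by bin of the 3020 spots of day 3 ordered by marker score, 302 spots each, with exact 95% Poisson intervals of each bin. The shaded bin 10 is the marker-rich spots, where fetal sarcomere genes climb furthest, macrophage genes lie below their level in bin 9, and adult sarcomere genes fall from bin 1.

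The marker spots were not uniform. They were divided in 3 by the share of Myh3 in their marker UMIs (103 spots with up to 14.3%, 98 spots, and 101 spots with 27.3% or more), and these values are a description since Myh3 is part of the rule. From the low to the high group, the 5 markers together were 1569, 1907 and 2297 CPM, so the score rose with the Myh3 share. The fetal sarcomere list was 1403, 2733 and 3666 CPM. Myh8 was 5.48 (3.25 to 8.66), 17.7 (13.2 to 23.1) and 60.3 CPM (51.4 to 70.2), and Actc1 was 188, 427 and 783. Igf2 was 28.9, 60.1 and 106 CPM and H19 315, 446 and 556. Mymk and Mymx were also higher with Myh3, at 162, 242 and 281 CPM and at 128, 176 and 193 CPM, while Myog was 782, 754 and 669 and Myod1 369, 344 and 301. The satellite cell list stayed level, at 246, 253 and 239 CPM, with intervals that overlapped.

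Other genes ran against Myh3. The cell cycle list was 1238 (1200 to 1276), 968 (933 to 1004) and 878 CPM (843 to 914) from the low to the high group. The macrophage list was 10600, 9434 and 7841 CPM and Spp1 926, 544 and 418. The interferon response list was 218, 155 and 108 CPM. Adult sarcomere genes moved with Myh3, at 31560, 42788 and 50651 CPM, and the median depth was 30997, 29686 and 26329 UMIs. The part of the score, of the adult sarcomere share and of depth in the differences between the Myh3 groups was not tested.

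**Figure D4:**
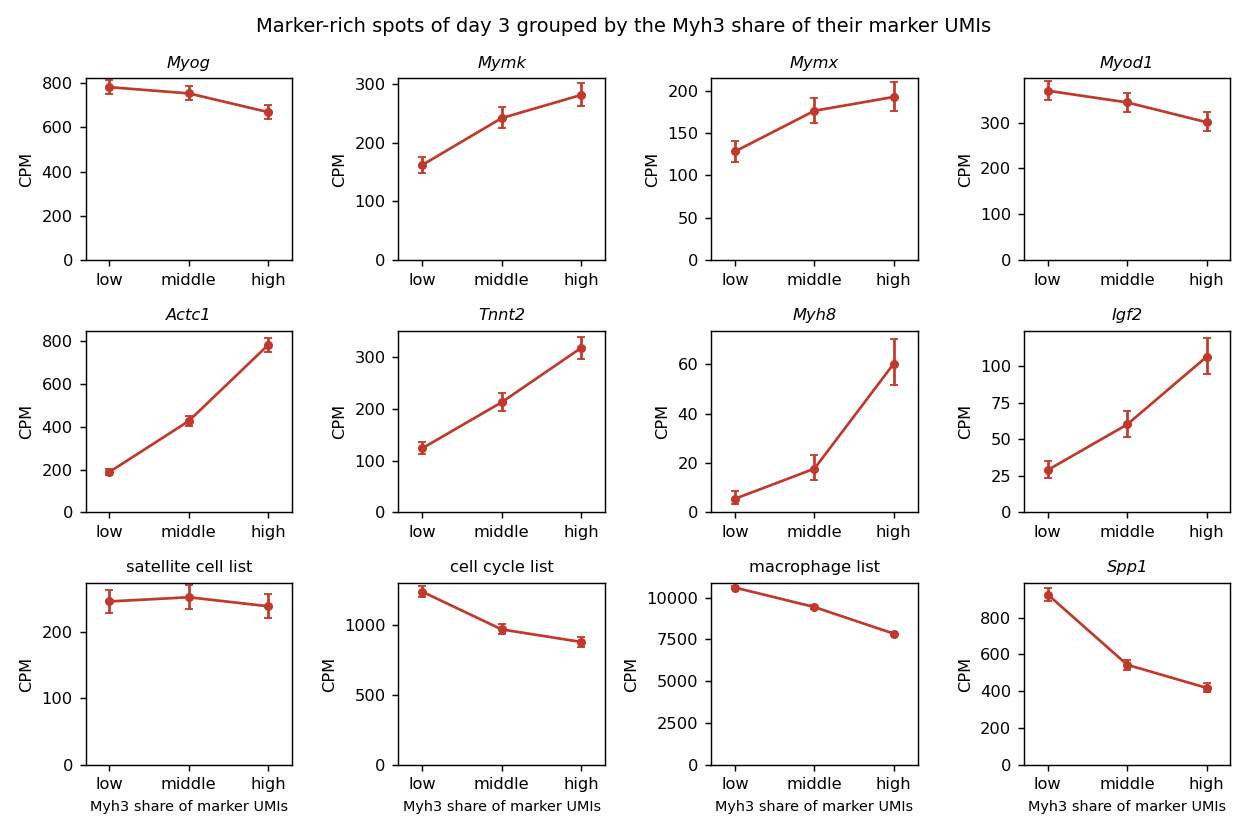
CPM of 9 genes and 3 gene lists (linear scales from 0, exact 95% Poisson intervals) in the 302 marker-rich spots of day 3, grouped by the share of Myh3 in their marker UMIs into 103, 98 and 101 spots. Myh8, Actc1, Tnnt2 and Igf2 climb from the low to the high group, the satellite cell list is level, and the cell cycle list, macrophage list and Spp1 descend.

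The marker spots were also set against 2 groups of spots rich in other cells. Over 10321 genes, 917 (8.88%) were at least 1.5 times higher in the marker spots than in the 274 macrophage-rich spots and 1479 (14.3%) lower. In this comparison fetal sarcomere genes were 6.22 times higher (5.99 to 6.45) and all 12 sarcomere assembly genes were higher. Interferon response genes were at 0.398 (0.374 to 0.424), and 9 of 10 macrophage genes were lower by 1.5 times, with a sum of 0.522. Those macrophage-rich spots still held myoblast RNA, with 174 CPM of Myog and 215 of Myod1. Compared with 236 fibroblast-rich spots, chosen in the same way from fibroblast genes, where 5.09% of 10038 genes were higher and 9.12% lower by 1.5 times, fetal sarcomere genes were 4.43 times higher (4.27 to 4.598) and the fibroblast sum was at 0.581. The lists that chose these groups had to differ. Of the marker spots, 28 (9.27%) were among the 302 spots highest in macrophage genes and 66 (21.9%) among those highest in fibroblast genes, where each list's spots are 10% of all spots.

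The highest-scoring 10% of the day 7 section, 295 spots with a median of 13 marker UMIs, was set beside the day 3 marker spots. These are spots of different sections and so of different libraries, and the day and the section cannot be told apart. Over 10321 genes, 2011 (19.5%) were at least 1.5 times higher at day 3 and 1893 (18.3%) at least 1.5 times lower. The day 7 spots were chosen from a score of 391 CPM upwards, against 1064 at day 3. The markers chose the spots of both days, so their levels are a description. Over all spots used, each of the 5 markers was also lower in the day 7 section than in the day 3 section. Myog had 738 and 303 CPM at days 3 and 7, Myod1 340 and 126, and Mymx 164 and 42.8, while Myh3 had 436 and 342. M-cadherin was 5.45 times higher at day 3 (4.65 to 6.42). All 16 cell cycle genes were higher at day 3, with a summed ratio of 3.82 (3.63 to 4.02), and all 10 macrophage genes, with 2.12 (2.09 to 2.15). Cell cycle genes also differed in the other spots of the sections, with 667 CPM at day 3 and 257 at day 7. Macrophage genes in the highest 10% were 1.27 times the level of the other spots at day 3 and 2.79 times at day 7. The other spots thus differed between the days by more than the 2.12 of the highest-scoring spots, and the macrophage difference was not confined to these.

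Sarcomere genes differed among themselves. The fetal sarcomere sum was at 0.440 (0.433 to 0.448) of its day 7 level, with 4 of 9 genes at least 1.5 times lower at day 3 and 1 higher, the slow myosin Myh7, at 159 against 35.9 CPM. Myh8 had 26.2 CPM at day 3 and 767 at day 7, a ratio of 0.0341 (0.0298 to 0.0389), Actc1 448 and 1896, and Sln 30.0 and 1480. All 12 genes of excitation contraction coupling were lower at day 3, with a summed ratio of 0.265. The adult sarcomere sum was at 0.292, with Myh2 as the gene that was higher at day 3, at 410 against 151 CPM. Imprinted genes were at 0.181 (0.177 to 0.185), with 10 of 11 genes lower. H19 had 432 CPM at day 3 and 3227 at day 7, Igf2 62.8 and 495, and Dlk1 0.554 and 144. Chrng had 78.7 and 49.1 CPM and Chrne 3.66 and 28.5. In both sections the fetal sarcomere list was higher in the highest 10% than in the rest, 4.34 times at day 3 and 3.91 times (3.86 to 3.96) at day 7. The other spots also differed between the days, with 347 CPM of imprinted genes at day 3 and 1991 at day 7. Fetal sarcomere genes had 583 and 1471 CPM there, adult sarcomere genes 103090 and 168172, and genes of excitation contraction coupling 2831 and 5694. These differences were thus not confined to the marker spots. Actc1 was not confined to injured muscle, with 6066 CPM in the day 0 section.

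**Figure D5:**
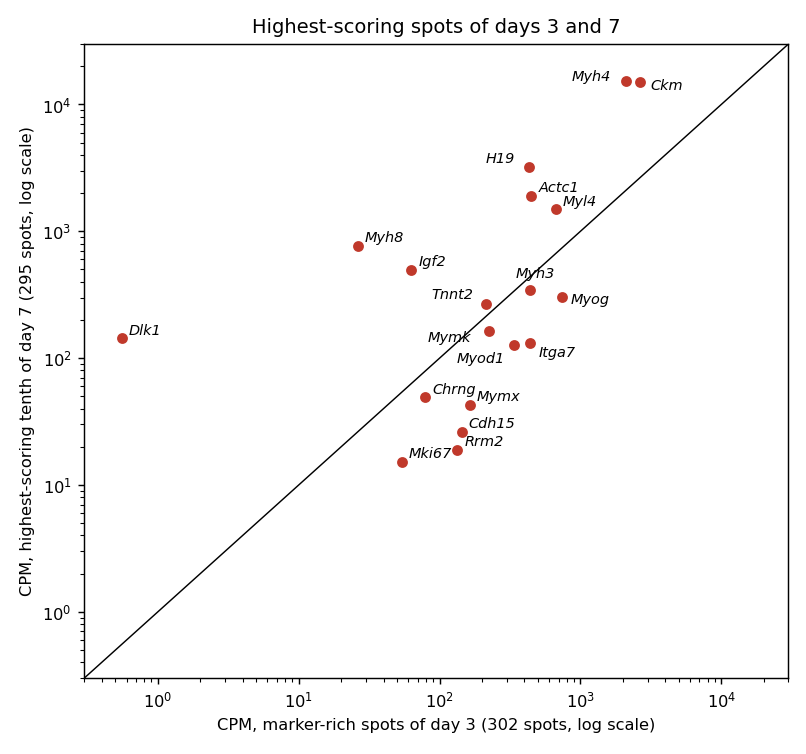
CPM of 19 named genes in the 302 marker-rich spots of day 3 (horizontal) and in the 295 highest-scoring spots of day 7 (vertical), both on log scales, with a line where they are equal. Dlk1, Myh8, Igf2, H19 and the adult genes Myh4 and Ckm lie above the line, and Myog, Mymx, Myod1, Cdh15, Itga7, Mki67 and Rrm2 lie below it.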

How the data were processed

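RNA was captured on arrays from 4 sections of fresh frozen muscle. The authors deposited UMI counts of each gene in each spot, not normalized. The matrix headers name Space Ranger 1.2.0, the labels Cell Ranger 5.0.0 with the STAR aligner, and the build is mm10. Each table held 32285 features. Total UMIs were 43871586, 16777832, 56113066 and 41832640 at days 0, 1, 3 and 7, and 17, 513, 9 and 84 spots had fewer than 2000 UMIs and were left out. No positions or images were used, and no deconvolution or doublet caller was run.

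For each group of spots, UMIs were added up per gene and divided by the group's total to give CPM. Ratios have exact conditional binomial intervals, levels exact Poisson intervals and shares Clopper-Pearson intervals, all at 95%. UMIs of neighbouring spots are not independent replicates, so no p-value was computed. Genes with at least 100 UMIs over both groups were compared, and a ratio of 1.5 or more, or its inverse or less, counted as higher or lower. Named genes were the 5 markers, the genes of 27 lists, and the 20 highest and 10 lowest genes with at least 10 CPM in either group. Myh3 shares and fibroblast-rich, macrophage-rich and matched spots were defined from the data. The members and lists were chosen with earlier results of these data known. Thinned shares are means over 20 draws. The calculation was tested on simulated counts. Scaling alternatives used TMM factors of edgeR 4.0.16 and size factors of DESeq2 1.42.0 under R 4.3.3, and the rest ran in Python 3.11.15 with SciPy 1.17.1.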

Additional observations from a re-analysis of the deposited data

Results flagged for a closer look

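For 9 gene lists, the highest-scoring 10% of spots lay on opposite sides of the rest of its section at day 3 and at day 7. Each day is 1 section, and the difference between days was not tested. Genes of excitation contraction coupling were at 0.679 times the level of the other spots at day 3 and at 1.28 times at day 7. Sarcomere assembly genes were at 0.951 and 1.12, and the day 7 value was 0.989 with TMM.

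Of 6 immune lists 3 changed side, while macrophage (1.27 and 2.79), recruited monocyte (1.17 and 1.82) and lipid handling macrophage genes (1.30 and 3.06) were above 1 at both days, recruited monocyte genes at day 3 only without scaling (0.999 with size factors). Interferon response genes were at 0.833 at day 3 and 1.87 at day 7, neutrophil genes at 0.877 and 1.83, and T and NK cell genes at 0.779 and 2.37. The neutrophil and the T and NK cell values came from few UMIs. Of the neutrophil genes, Mmp9 had 124 UMIs in the highest-scoring spots of day 7, Csf3r 59, S100a8 25 and S100a9 4.

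Some stromal lists changed the other way. Fibroblast genes were at 1.46 at day 3 and 0.761 at day 7, tendon genes at 1.15 and 0.718, mural genes at 1.35 and 0.963, and osteochondral genes at 1.47 and 0.459. The osteochondral sums rested on different genes. In the highest-scoring spots they were mainly Sox9 (176 UMIs) and Runx2 (142) at day 3, and Col2a1 (1971), Acan (998) and Ibsp (692) at day 7. The tendon value of day 3 was 0.975 with TMM. Provisional matrix genes stayed above 1 at both days (1.69 and 1.16), and endothelial genes stayed below 1 (0.874 and 0.969).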

How the results depend on the processing

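No paired analysis was possible because each day has 1 section and no result comes from a test. In each alternative below, values are given in the order fetal sarcomere, adult sarcomere, cell cycle, macrophage and fibroblast list ratio, which were 4.34, 0.399, 1.56, 1.27 and 1.46 as reported. With spots from the 95th percentile they were 4.94, 0.384, 1.51, 1.18 and 1.36, and from the 80th 4.05, 0.411, 1.63, 1.47 and 1.56. With the score taken after thinning to 2000 UMIs, which chose 680 spots through ties and held 250 of the marker spots, they were 2.90, 0.542, 1.45, 1.35 and 1.37. With the markers weighted equally they were 4.69, 0.440, 1.46, 1.24 and 1.45, and without Myh3 in the score 3.94, 0.374, 1.62, 1.34 and 1.45. With spots chosen on 1 part of the UMIs and levels from the other, the adult sarcomere ratio was 0.406 and the fibroblast ratio 1.41. With totals that leave out mitochondrial, haemoglobin and adult sarcomere genes they were 4.004, 0.409, 1.27, 1.04 and 1.23. TMM factors gave 3.70, 0.339, 1.33, 1.08 and 1.24, and size factors 3.69, 0.339, 1.32, 1.08 and 1.24. Means of spot CPM gave 5.39, 0.341, 1.82, 1.57 and 1.71. Against the matched spots, an alternative chosen after seeing the data, they were 2.94, 0.967, 1.08, 0.831 and 1.01, so the macrophage ratio changed side, and the cause was not tested.

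The 1546 genes higher and 682 lower became 829 and 443 with the thinned score, 615 and 1157 with TMM, 611 and 1160 with size factors, 3798 and 1382 without the filter, 538 and 347 with at least 1000 UMIs per gene, and 355 and 311 at a fold of 2. The count of higher genes was 610 with the reduced total, 2822 with means of spot CPM and 566 against the matched spots. With no replicate section, none of these values shows how far animals differ.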
